A study of Homo sapiens with 5 samples.

Results

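Genes of the folate cycle were examined in HEK293 cells, a long-established line derived from human embryonic kidney, by sequencing of messenger RNA. The 8 genes were chosen by name: SHMT1, SHMT2, MTHFD1, MTHFD2, MTHFD1L, MTHFD2L, TYMS and ALDH1L2. All 8 were among the 16677 genes of the deposited count table, and all 8 were among the 16310 that passed the filter on low counts. Per the labels, 2 libraries came from wild-type cells and 3 from cells that carry rs11607019, a T-to-C change that the series places in SIRT3, all grown under basal conditions. The comparison asks whether these genes are expressed at another level in cells with the variant. The labels name neither clones nor cultures, and do not say whether 1 or both alleles carry the change, so p-values measure only the spread between these libraries, which may be technical.

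The folate cycle carries single-carbon units on tetrahydrofolate for the synthesis of purines, thymidylate and methionine. In mitochondria, SHMT2 takes the carbon from serine, MTHFD2 and MTHFD2L oxidise it, and MTHFD1L releases it as formate. ALDH1L2 instead oxidises the mitochondrial formyl unit to carbon dioxide. In the cytosol, the trifunctional enzyme MTHFD1 loads formate back onto tetrahydrofolate, SHMT1 exchanges the carbon with serine, and TYMS uses it to make thymidylate. SIRT3 is a deacetylase of the mitochondrial matrix, and the SHMT2 protein is among its described substrates. Messenger RNA does not report on acetylation.

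Promoter windows from RefSeq (GRCh38.p14), each of 250 bases before and 50 bases after an annotated start, were found for 6 of the 8 genes, in 10 windows; SHMT2 and ALDH1L2 were not matched. Those of MTHFD1, MTHFD2 and MTHFD1L are printed 5′ to 3′ on the forward strand, because MTHFD1 and MTHFD2 had the smallest p-values of the 8 genes and MTHFD1L was the gene with a match to the ATF4 composite element. Capitals mark TGATGNAA (the ATF4 composite element), CACGTG (the E-box, bound by MYC with MAX) and CCAAT (the CCAAT box), each searched on both strands. They lie at chr14:64388103-64388402, chr2:74198365-74198664 and chr6:150866197-150866496.
MTHFD1: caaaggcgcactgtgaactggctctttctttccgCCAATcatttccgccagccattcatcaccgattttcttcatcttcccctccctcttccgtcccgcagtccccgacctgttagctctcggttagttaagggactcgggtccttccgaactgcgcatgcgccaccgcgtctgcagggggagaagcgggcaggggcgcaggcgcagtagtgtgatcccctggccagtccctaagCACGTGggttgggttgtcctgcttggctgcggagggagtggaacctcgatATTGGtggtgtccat
MTHFD2: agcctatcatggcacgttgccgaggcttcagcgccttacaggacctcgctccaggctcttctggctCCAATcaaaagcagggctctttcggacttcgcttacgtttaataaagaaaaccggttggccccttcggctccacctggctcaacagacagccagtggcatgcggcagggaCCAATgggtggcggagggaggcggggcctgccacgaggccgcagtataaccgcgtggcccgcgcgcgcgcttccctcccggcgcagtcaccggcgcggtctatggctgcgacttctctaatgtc
MTHFD1L: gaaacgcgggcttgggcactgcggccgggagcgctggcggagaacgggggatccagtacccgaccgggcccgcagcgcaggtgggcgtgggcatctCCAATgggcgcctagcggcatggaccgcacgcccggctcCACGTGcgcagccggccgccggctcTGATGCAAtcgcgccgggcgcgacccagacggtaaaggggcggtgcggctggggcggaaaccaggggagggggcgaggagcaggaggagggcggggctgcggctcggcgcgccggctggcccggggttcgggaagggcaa

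The MTHFD1 window held CACGTG from base −15 to base −10, counted back from the start, and CCAAT on each strand. The MTHFD2 window held CCAAT at 2 positions. The MTHFD1L window held TGATGCAA from base −90 to base −83, with CACGTG and CCAAT further upstream. Of the 4 MTHFD1L windows, 3 overlap and hold these 3 motifs. Their positions depend on the annotated start. In the window that begins at 150866083, TGATGCAA lies after the start, from base 25 to base 32. In the window that begins at 150866236, it lies from base −129 to base −122. Among 35116 windows of the same length, TGATGNAA was found in 3.62%, CACGTG in 7.26% and CCAAT in 34.6%. Of the 6 matched genes, 1 had TGATGNAA, 2 had CACGTG (MTHFD1 and MTHFD1L) and 4 had CCAAT (the 3 printed and SHMT1). The E2F motif (TTTGGCGC or TTTCGCGC) was found in 1.15% of windows and in 0 of the 6 genes, and the GC box (GGGCGG) in 45% of windows and in 3 of the 6 genes, SHMT1, MTHFD1L and MTHFD2L. The percentages are per window and the counts are per gene. A gene with several windows has more chances of a match, so percentages and counts are not like for like. Matches and misses describe the letters of these windows only.

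Library totals ran from 17122569 to 17596084 counts, and the 8 genes together took between 18899 and 22039 counts per library. SIRT3 itself stood at 28.9 and 29.3 CPM in wild type and at 26.5, 15.8 and 30.2 CPM in variant 1, variant 2 and variant 3 (log2 fold change −0.27, SE 0.26; edgeR adjusted p 0.815). CPM is the usual abundance unit of counts scaled to library size, here after TMM (trimmed mean of M-values) normalisation. Of 8 markers listed for HEK293, 5 had a row, PAX2, LHX1, VIM, KRT8 and KRT18, with a summed level of 638 to 907 CPM in wild type and 748 to 1126 CPM in the variant. NEFL, NEFM and CDH2 had no row under these names. Most of the sum came from VIM (328 to 619 CPM) and KRT8 (226 to 371 CPM). PAX2 had 9.94 to 22.0 CPM and LHX1 had 9.53 to 21.1 CPM. Of 20 markers of leukocytes, endothelium, hepatocytes, mature kidney and fibroblasts, 3 had a row. They were TF (up to 6.96 CPM), AQP1 (up to 2.30 CPM) and COL1A1 (28.4 to 46.3 CPM).

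With edgeR's quasi-likelihood F test and Benjamini-Hochberg adjustment, 0 of the 8 folate genes passed the threshold of 0.05, and 0 of all 16310 genes did (0%). At an unadjusted p under 0.05 there was 1 folate gene, MTHFD1, against 7.62% of all tested genes. DESeq2's Wald test called 31 genes, 0 of them among the 8. In RNA from whole cultures, fewer cells that express a gene and less of its RNA per cell cannot be told apart. Fold changes, given throughout as variant over wild type on the log2 scale, were above 0 for MTHFD1, MTHFD1L, TYMS and ALDH1L2 and below 0 for SHMT1, SHMT2, MTHFD2 and MTHFD2L. Their median was 0.02, beside 0.0030 over all tested genes. The 3 variant libraries all lay above both wild-type libraries for MTHFD1 and MTHFD1L (2 of 8, where 11.8% of tested genes did so) and all below them for MTHFD2 and SHMT1 (2 of 8, where 13% did so).

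**Figure D1:**
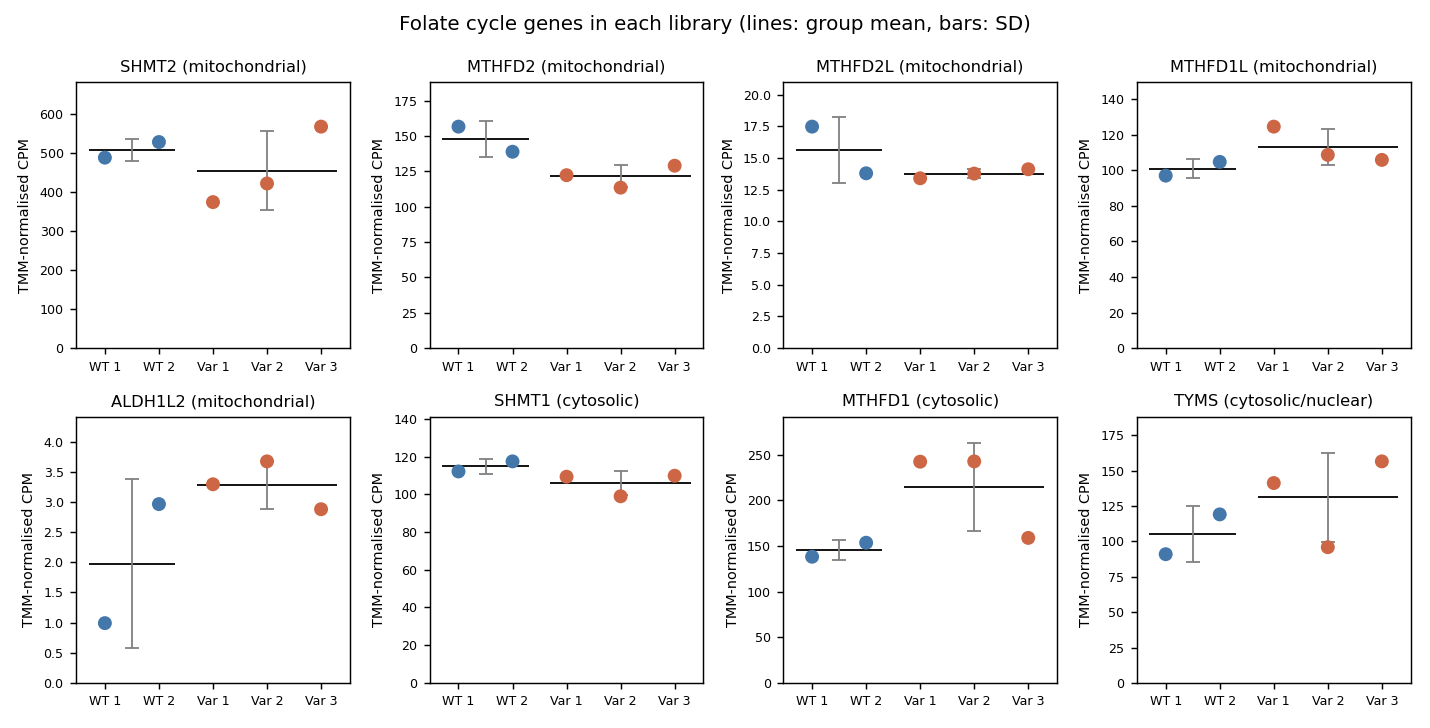
TMM-normalised CPM (y axes, from 0) of the 8 folate genes in the 2 wild-type (WT, blue) and 3 variant (Var, orange) libraries (x axes); lines are group means and bars are SD. MTHFD1 is near 242 CPM in 2 variant libraries and at 159 CPM in the third, beside 138 and 154 CPM in wild type, while SHMT2 has its highest and its lowest value within the variant group.

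Per length of transcript, SHMT2 was the most abundant of the 8. Levels were divided by the length of the longest principal protein-coding transcript of GENCODE release 29, in kilobases. SHMT2 had a median of 192 CPM per kilobase over the 5 libraries, with a range of 147.5 to 224. TYMS followed with 71.7 (54.7 to 94.2), then MTHFD1 with 50.6 (44.1 to 77.4) and SHMT1 with 44.6 (40.2 to 47.7). The ranges of TYMS and MTHFD1 overlapped, as did those of MTHFD1 and SHMT1. MTHFD1L had 29.4 CPM per kilobase (26.9 to 34.6) and MTHFD2 had 28.9 (25.5 to 35.1), and these also overlapped. MTHFD2L had 6.0 (5.83 to 7.60) and ALDH1L2 had 0.393 (0.131 to 0.487). SHMT2, MTHFD2L and ALDH1L2 overlapped with no other gene in this order. With the length of all annotated exons in place of the principal transcript, MTHFD2 and MTHFD1L moved ahead of MTHFD1 and SHMT1, and the first 2 and the last 2 places stayed as they were.

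SHMT2 (ENSG00000182199, chromosome 12, 57229327 to 57234935), the mitochondrial serine hydroxymethyltransferase, had 8376 and 9262 counts in wild type and 6475, 7350 and 10051 counts in the variant libraries. This is 488 and 528 CPM for wild type, against 374 CPM for variant 1, 422 for variant 2 and 568 for variant 3. Variant 3 was above both wild-type libraries and the other variant libraries were below both, so the groups overlapped. The means were 508 ± 28.3 CPM (SD, n = 2) and 455 ± 100.8 CPM (SD, n = 3). That is −0.16 as a log2 fold change (SE 0.18, 95% confidence interval −0.57 to 0.25; edgeR adjusted p 0.839). The difference was smaller than the spread of the variant libraries. Its value was −0.35 without variant 3, −0.10 without wild-type 2, −0.04 without variant 1 and −0.29 once GC content and transcript length were adjusted for, and the adjusted p over all alternatives ran from 0.484 to 0.998.

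MTHFD2 (ENSG00000065911, chromosome 2, 74198562 to 74217565) is the mitochondrial methylenetetrahydrofolate dehydrogenase and cyclohydrolase that acts after SHMT2. It stood at 157 and 139 CPM in wild type and at 122, 113 and 129 CPM in the variant libraries. Every variant library was below both wild-type libraries, so the groups did not overlap. The means were 148 ± 12.5 CPM (SD, n = 2) and 122 ± 7.78 CPM (SD, n = 3), a log2 fold change of −0.28 (SE 0.15, 95% confidence interval −0.61 to 0.05; edgeR adjusted p 0.676). The value did not pass the threshold. The median log2 fold change over 723 genes of chromosome 2 was −0.14, and with chromosome medians set equal in all libraries that of MTHFD2 was −0.12. As log2 deviations from the mean of all libraries, chromosome 2 medians were 0.12 and 0.05 (wild type) and 0.05, 0.03 and −0.27 (variant). MTHFD2 itself stood at 0.25 and 0.08 in wild type and at −0.10, −0.21 and −0.02 in the variant. The chromosome was thus low in variant 3 only, where MTHFD2 was highest among the variant libraries. Medians of the 20 nearest genes, 0.06 and 0.07 in wild type and −0.06, −0.01 and −0.09 in the variant, shared the sign of MTHFD2. Of the annotated exonic bases of MTHFD2, 27.2% are shared with exons of SLC4A5 on the opposite strand. The pseudogenes named after MTHFD2 are 7, 1 of which is in the table. Whether the counts used the strand is not given in the sources used here, so reads from shared bases may be lost or misplaced and its level is uncertain.

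MTHFD2L (ENSG00000163738, chromosome 4, 74114174 to 74303099), the related mitochondrial dehydrogenase, had 232 to 300 counts per library. It stood at 17.5 and 13.8 CPM in wild type and at 13.4, 13.8 and 14.1 CPM in the variant libraries. Wild-type 1 stood above the other 4 libraries, which lay close together. Its log2 fold change was −0.18 (SE 0.21; edgeR adjusted p 0.842). It was −0.0040 without wild-type 1, −0.34 without wild-type 2, −0.06 with chromosome medians set equal and 0.037 once GC content and transcript length were adjusted for, so its direction was not stable.

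MTHFD1L (ENSG00000120254, chromosome 6, 150865549 to 151101887), the mitochondrial formate-releasing enzyme, stood at 97.0 and 104.7 CPM in wild type and at 125, 109 and 106 CPM in the variant libraries. The groups did not overlap, but variant 3 and wild-type 2 were nearly equal. The log2 fold change was 0.16 (SE 0.15, 95% confidence interval −0.18 to 0.51; edgeR adjusted p 0.804). It was 0.09 without variant 1 and 0.06 with GC content and length adjusted for. With chromosome medians set equal it was 0.01, and the median over 588 genes of chromosome 6 was 0.13.

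ALDH1L2 (ENSG00000136010, chromosome 12, 105019784 to 105084577), the mitochondrial formyltetrahydrofolate dehydrogenase, had the fewest counts of the 8: 17 and 52 in wild type and 57, 64 and 51 in the variant libraries. In CPM this is 0.991 and 2.97 in wild type and 3.29, 3.67 and 2.88 in the variant. Wild-type 1 alone was low, and wild-type 2 lay within the range of the variant libraries. Its log2 fold change was 0.73 (SE 0.44, 95% confidence interval −0.27 to 1.72; edgeR adjusted p 0.704). It was 0.15 without wild-type 1 and 1.72 without wild-type 2, so its size rested on which wild-type library was kept.

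SHMT1 (ENSG00000176974, chromosome 17, 18327860 to 18363563), the cytosolic serine hydroxymethyltransferase, varied least among the 8, with a ratio of highest to lowest library of 1.19. It stood at 112 and 117 CPM in wild type and at 109, 99.0 and 110 CPM in the variant libraries. The variant libraries were below both wild-type libraries, 2 of them by less than the distance between the wild-type libraries. For the genotypes the log2 fold change was −0.11 (SE 0.14, 95% confidence interval −0.44 to 0.21; edgeR adjusted p 0.861). It was −0.07 without variant 2 and −0.20 with GC content and length adjusted for. The ratio of SHMT2 to SHMT1, both per kilobase, was 4.23 and 4.37 in wild type and 3.32, 4.14 and 5.02 in the variant, so the wild-type ratios lay within the variant range.

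MTHFD1 (ENSG00000100714, chromosome 14, 64388031 to 64463457), the trifunctional cytosolic enzyme, had the smallest p of the 8. Its counts were 2371 and 2692 in wild type and 4193, 4227 and 2812 in the variant libraries. This is 138 and 154 CPM in wild type and 242, 243 and 159 CPM in variant 1, variant 2 and variant 3. Variant 1 and variant 2 stood apart, whereas variant 3 was closer to wild-type 2 than wild-type 2 was to wild-type 1. The means were 146 ± 10.8 CPM (SD, n = 2) and 215 ± 48.3 CPM (SD, n = 3), a ratio of 1.47. The log2 fold change was 0.56 (SE 0.20, 95% confidence interval 0.11 to 1.01; edgeR p 0.0205, adjusted p 0.616). It did not pass the threshold. Leaving out variant 3 gave 0.73, and leaving out variant 1 or variant 2 gave 0.46. Of the annotated exonic bases of MTHFD1, 8.06% are shared with AL122035.2, 1.90% with ZBTB25 and 1.08% with AL122035.1, all on the opposite strand. The 1 pseudogene named after MTHFD1 is in the table.

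The same split of libraries was present along chromosome 14. Relative to the mean of the 5 libraries, MTHFD1 deviated on the log2 scale by −0.39 and −0.24 in wild type, by 0.42 in variant 1 and variant 2, and by −0.19 in variant 3. The median deviation of the 20 expressed genes nearest to it, 10 on each side between positions 60709528 and 65102695, was −0.13 and −0.19 in wild type and 0.32, 0.30 and −0.30 in the variant. Over 368 genes of the chromosome it was −0.17 and −0.17 in wild type and 0.30, 0.28 and −0.25 in the variant. MTHFD1, its neighbours and the whole chromosome were thus above 0 in variant 1 and variant 2 and below 0 in the other 3 libraries. ZBTB25, which shares exonic bases with MTHFD1, is among the 20 neighbours. Of the 20 neighbours, 17 had a log2 fold change above 0, as 8229 of all 16310 tested genes did. Of those 17, 2 had an unadjusted edgeR p under 0.05, beside 4.11% of all tested genes higher at that limit. With each library's chromosome medians set to 0, an alternative chosen after seeing the data, the log2 fold change of MTHFD1 was 0.25 (SE 0.12) in place of 0.56. The edgeR adjusted p was then 0.724, and over all alternatives it ran from 0.283 to 0.998. Gene copy number was not analysed here, and the part of the chromosome in the MTHFD1 value was not tested further.

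**Figure D2:**
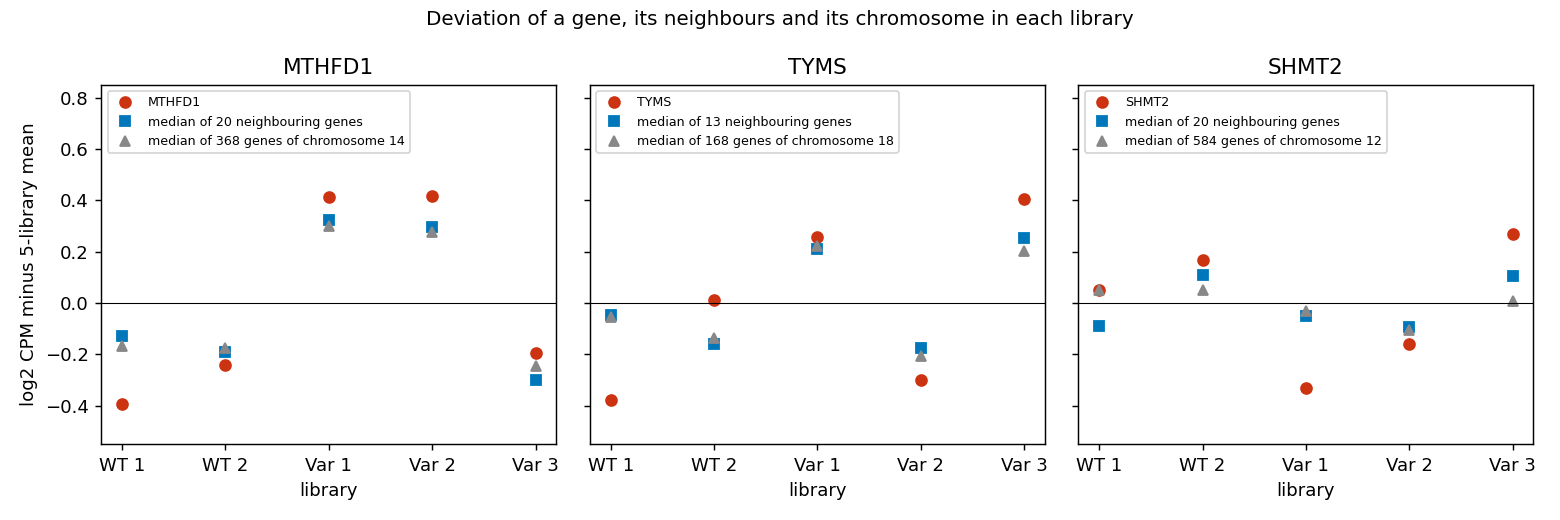
Deviation of log2 CPM from the mean of the 5 libraries (y axis) for MTHFD1, TYMS and SHMT2 (circles), the median of neighbouring genes (squares) and the median of the chromosome (triangles) in each library (x axis). For MTHFD1 all 3 marks lie above 0 in variant 1 and variant 2, and for TYMS in variant 1 and variant 3; the chromosome 12 median of SHMT2 stays between −0.11 and 0.05.

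TYMS (ENSG00000176890, chromosome 18, 657604 to 673578), which makes thymidylate for DNA synthesis, stood at 91.0 and 119 CPM in wild type. In variant 1, variant 2 and variant 3 it stood at 141, 95.9 and 157 CPM. Variant 1 and variant 3 were above both wild-type libraries and variant 2 lay between them, so the groups overlapped. The means were 105 ± 19.9 CPM (SD, n = 2) and 131 ± 31.6 CPM (SD, n = 3). The log2 fold change was 0.32 (SE 0.22, 95% confidence interval −0.18 to 0.82; edgeR adjusted p 0.735). Of its annotated exonic bases, 39.1% are shared with exons of ENOSF1 and 7.41% with exons of TYMSOS, both on the opposite strand, so its counts are uncertain. ENOSF1 stood at 73.8 and 67.5 CPM in wild type and at 90.8, 72.9 and 84.3 CPM in the variant.

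TYMS was high and low in the same variant libraries as its chromosome. Its deviations on the log2 scale were −0.38 and 0.01 in wild type and 0.26, −0.30 and 0.41 in the variant libraries. The medians of the 13 expressed genes nearest to it were −0.05 and −0.16 in wild type and 0.21, −0.17 and 0.25 in the variant. Over 168 genes of chromosome 18 they were −0.06 and −0.14 in wild type and 0.22, −0.21 and 0.20 in the variant. In the variant group, variant 1 and variant 3 were thus high and variant 2 low for the gene, its neighbours and its chromosome. TYMSOS and ENOSF1 are among the 13 neighbours. With the chromosome medians set to 0 the log2 fold change of TYMS was 0.12 (SE 0.17) in place of 0.32. The edgeR adjusted p was then 0.897, and over all alternatives it ran from 0.625 to 0.998. Without wild-type 1 the log2 fold change was 0.14, without variant 3 it was 0.17, without variant 2 it was 0.50 and without wild-type 2 it was 0.53.

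SHMT2 deviated further from 0 than the chromosome 12 median in all 5 libraries, though by almost nothing in wild-type 1. A median over many genes varies less than a single gene does, so this does not set SHMT2 apart from its chromosome. The chromosome 12 median was 0.05 and 0.05 in wild type and −0.03, −0.11 and 0.01 in the variant, whereas SHMT2 deviated by 0.05 and 0.17 in wild type and by −0.33, −0.16 and 0.27 in the variant. The 20 nearest genes had medians of −0.09 and 0.11 in wild type and −0.05, −0.09 and 0.11 in the variant. They share the sign of SHMT2 in 4 of the 5 libraries. With chromosome medians set equal, the log2 fold change of SHMT2 was −0.07.

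**Figure D3:**
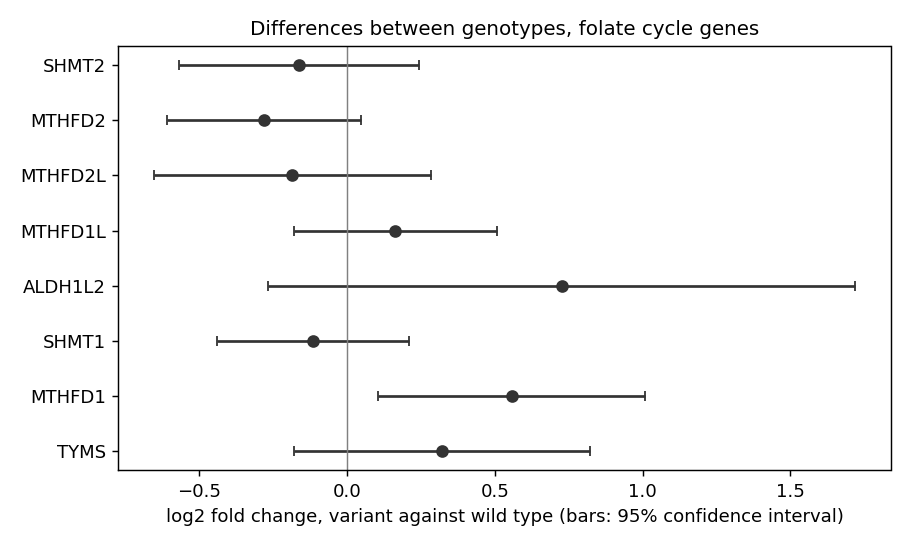
Log2 fold change, variant over wild type (x axis) for the 8 folate genes (y axis), with 95% confidence intervals from edgeR. The interval of MTHFD1, 0.11 to 1.01, lies above 0 before adjustment over all genes, and the intervals of the other 7 genes include 0.

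Ratios of cytosolic to mitochondrial enzymes separated the variant libraries where MTHFD1 entered them. The ratio of SHMT2 to MTHFD1, both per kilobase, was 4.37 and 4.25 in wild type, and for the variant libraries in turn 1.91, 2.15 and 4.42. The ratio of MTHFD1 to MTHFD1L was 1.64 and 1.69 in wild type and 2.24, 2.57 and 1.72 in the variant. In both ratios variant 3 lay beside the wild-type libraries and apart from the other variant libraries. The ratio of MTHFD2 to MTHFD2L, the enzymes of the same mitochondrial step, was 4.62 and 5.19 in wild type and 4.71, 4.25 and 4.71 in the variant. SHMT2 took 44.3% and 44.8% of the counts of the 8 genes in wild type and 33.1%, 38.4% and 45.6% in the variant.

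The genes whose pattern over the 5 libraries was nearest to SHMT2 were searched among 10411 genes with a mean of at least 10 CPM. Nearness was the root mean square difference of log2 deviations. The nearest 5 were COTL1 (0.0227), POLA2 (0.0271), PRR14 (0.0342), POLR2J (0.0352) and ROGDI (0.0363), beside a median of 0.288 over all genes compared. COTL1, which encodes an actin-binding protein, had 73.7 and 81.7 CPM in wild type and 59.3, 65.3 and 88.4 CPM in the variant. With 5 libraries such nearness is a description, and none of the 5 is on a list used here.

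Genes linked to the folate cycle were taken from 9 lists. Of their 68 genes, 61 were tested, and edgeR's adjusted p was under 0.05 for 0 of them. At an unadjusted p under 0.05 there were 2 higher (4.11% of all tested genes were) and 3 lower (3.51% were). Point estimates were below 0 for 40 of the 61, and for 8081 of all 16310 tested genes. That share is also the one to set beside the counts of each list below. The median log2 fold change was −0.08, beside 0.0030 over all tested genes. The variant libraries lay wholly below wild type for 10 (13% of all tested genes did) and wholly above for 2 (11.8% did). SLC25A32, ALDH1L1, FTCD, AMT, BHMT, CBS and MYCN had no row under these names.

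Serine supply showed both directions. Of 7 genes of serine synthesis and import, 2 had point estimates above 0 and 5 below, with a median log2 fold change of −0.14. PSAT1, the aminotransferase of serine synthesis, stood at 165 and 154 CPM in wild type and at 193, 237 and 246 CPM in the variant. Its log2 fold change was 0.50 (SE 0.16; edgeR p 0.0106, adjusted p 0.616). PSPH, the phosphatase that completes serine synthesis, stood at 44.4 and 49.3 CPM in wild type and at 28.4, 35.1 and 40.6 CPM in the variant, a log2 fold change of −0.43 (SE 0.19; edgeR adjusted p 0.657). PSAT1 was thus above wild type and PSPH below it in all 3 variant libraries, neither past the threshold. PSAT1 is on chromosome 9, as are FPGS, GLDC and VLDLR, named below, all with log2 fold changes above 0. Whether these values follow their chromosome was not tested. SFXN1, a mitochondrial serine carrier, was next by p (log2 fold change −0.15). PHGDH, the first enzyme of the route, was picked after its values were seen. It stood at 395 and 480 CPM in wild type and at 286, 437 and 464 CPM in the variant. PHGDH was lowest in variant 1, as SHMT2 and PSPH were. Its highest library was wild-type 2, whereas that of SHMT2 was variant 3.

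Of 7 genes of folate uptake, retention and reduction, 0 had an unadjusted p under 0.05, and their median log2 fold change was −0.21. The smallest p-values were those of FOLR1, a folate receptor with 3 to 22 counts (log2 fold change −1.28), FPGS, which adds the glutamate tail that keeps folate in cells (0.40), and GGH, which removes it (−0.32). The glycine cleavage genes tested were 3. DLD, the shared dihydrolipoamide dehydrogenase, stood at 217 and 167 CPM in wild type and at 159, 151 and 139 CPM in the variant, a log2 fold change of −0.36 (SE 0.16; edgeR p 0.0473, adjusted p 0.649). The others were GCSH (−0.51), with 25 to 45 counts, and GLDC, the glycine decarboxylase (0.32). From the list of other folate-using enzymes, MTHFS had a log2 fold change of 0.10 and MTFMT of −0.03.

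The downstream uses of the carbon unit were also without a call. Of 9 genes of de novo purine synthesis 7 had point estimates below 0, with a median log2 fold change of −0.11. PAICS, a bifunctional purine enzyme, stood at 298 and 274 CPM in wild type and at 223, 228 and 246 CPM in the variant (edgeR adjusted p 0.657). PPAT and ADSL followed with log2 fold changes of −0.33 and −0.30. PAICS and PPAT are both on chromosome 4, where the median log2 fold change over 375 genes was −0.12. Of 6 genes of the methionine cycle and transsulfuration, 3 were above and 3 below 0, and the smallest p-values were those of CTH (−0.43), MAT2B (−0.18) and AHCY (0.13).

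Of 9 genes of thymidylate and deoxynucleotide supply 7 had point estimates below 0, opposite in sign to TYMS, with a median of −0.07. RRM2, the regulated subunit of ribonucleotide reductase, stood at 308 and 278 CPM in wild type and at 267, 220 and 195 CPM in the variant, a log2 fold change of −0.37 (SE 0.16; edgeR p 0.0487, adjusted p 0.651). DUT and TK1 followed with −0.28 and −0.37. RRM2 is on chromosome 2, where the median log2 fold change over 723 genes was −0.14. RRM2, like the chromosome 2 median, was lowest in variant 3. Whether the RRM2 value follows its chromosome was not tested.

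Regulators were examined because ATF4, MYC and E2F factors are known to act on folate genes. Of 10 genes of ATF4 and the amino acid response 7 had point estimates below 0, with a median of −0.13. SLC7A11, the cystine transporter, stood at 42.8 and 31.0 CPM in wild type and at 18.2, 29.6 and 18.4 CPM in the variant, a log2 fold change of −0.74 (SE 0.26; edgeR p 0.0173, adjusted p 0.616). VLDLR and DDIT4 followed with 0.35 and −0.37. Of 7 regulators of the MYC and E2F families 3 were above 0 and 4 below. E2F3 stood at 107 and 85.5 CPM in wild type and at 145, 118 and 123 CPM in the variant (edgeR p 0.0343, adjusted p 0.627). MYC and MAX followed with −0.41 and 0.22. MAX is also on chromosome 14 and is the farthest of the 10 MTHFD1 neighbours on that side. E2F3 is on chromosome 6, where the median log2 fold change over 588 genes was 0.13. SLC7A11 is on chromosome 4, where it was −0.12 over 375 genes. Whether the values of E2F3 and SLC7A11 follow their chromosomes was not tested.

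**Figure D4:**
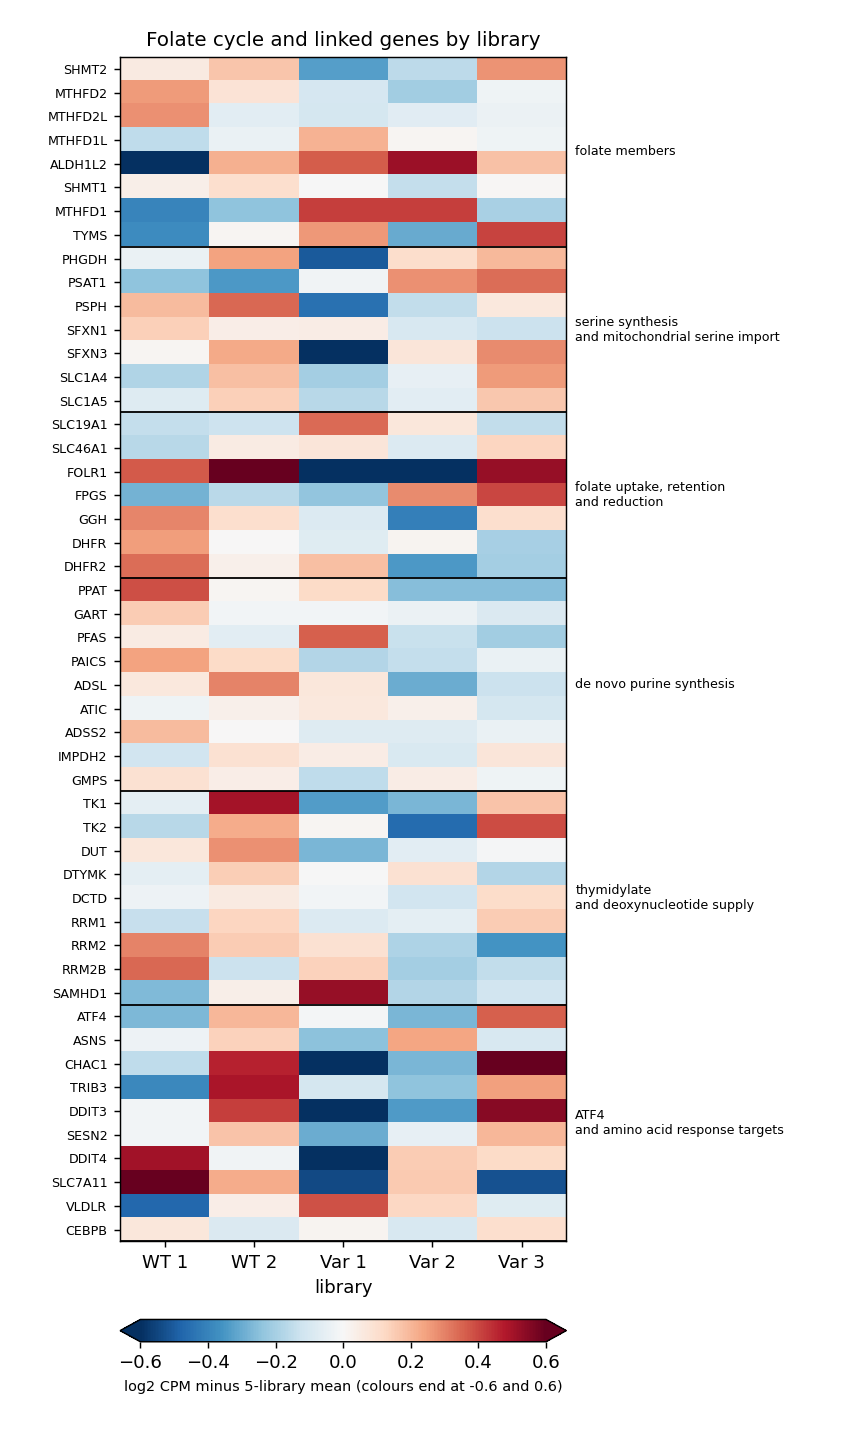
Deviation of log2 CPM from the mean of the 5 libraries (colour, ending at −0.6 and 0.6) for the folate genes and 5 linked lists (rows) in each library (columns). The MTHFD1 row is high in variant 1 and variant 2 only, and rows within a list often differ in sign, as PSAT1 and PSPH do.

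**Figure D5:**
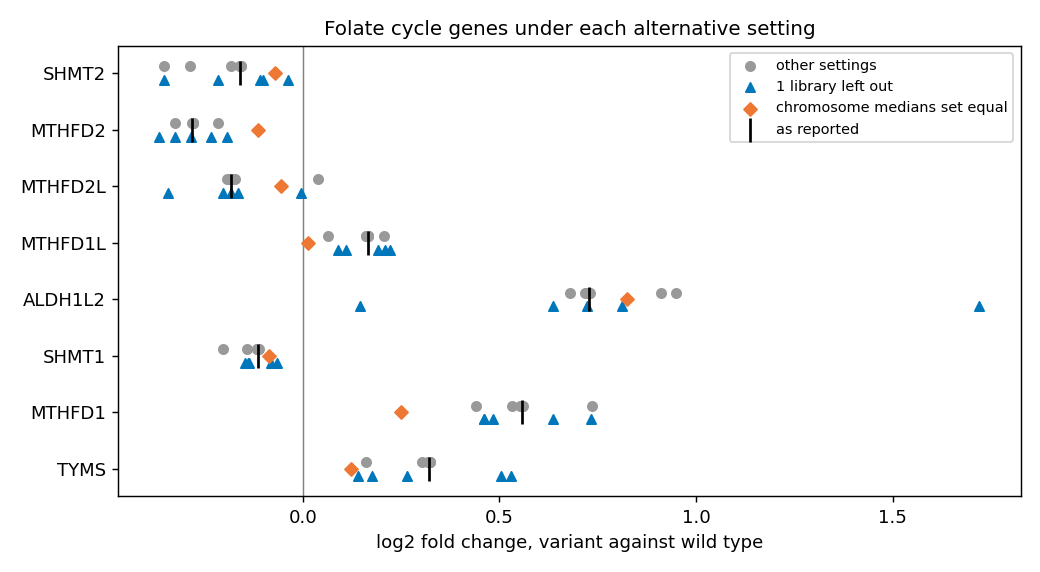
Log2 fold change, variant over wild type (x axis) for each folate gene (y axis) as reported (black bar), with 1 library left out (triangles), with chromosome medians set equal (diamonds) and under the other settings (circles). MTHFD1 runs from 0.25 to 0.74, and the values of ALDH1L2 from 0.15 to 1.72.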

How the data were processed

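Messenger RNA of 5 HEK293 libraries was measured as DNBSEQ single-end reads of 50 bases from a strand-specific library, per the labels' protocols. The authors deposited raw read counts per Ensembl gene, and HISAT2, SAMtools, HTSeq and hg38 are named in the submitters' processing notes. Their versions, the annotation, the strand setting and any filter are not given in the sources used here. No gene had fewer than 3 counts in any library, so genes silent in a group could not be seen. Columns were matched to libraries by name. The column name of variant 3 alone begins with HEK293, and what this marks is not given in the sources used here. Symbols came from the gene name table and positions and lengths from GENCODE release 29 (GRCh38).

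Genes were filtered with filterByExpr of edgeR by group, scaled by TMM and tested with edgeR 4.0.16's quasi-likelihood F test (R 4.3.3), two-sided, robust, with group as the only term and Benjamini-Hochberg adjustment over 16310 genes at a threshold of 0.05. Deviations use log2 CPM with a prior count of 2. Medians of chromosomes and neighbours were taken where the mean log2 CPM exceeded 3. The genes and lists were chosen with earlier results of these data known. Named were the 8 folate genes, SIRT3, at most 3 genes of each list by smallest p, and the 5 genes nearest to SHMT2. A list gene that the rule names is not reported here. PHGDH, genes that share exons with a member and the markers were named outside that rule. Alternatives were RLE and upper-quartile scaling, no filter, limma-voom (limma 3.58.1), DESeq2 1.42.0 with its Wald test, a minimum of 10 counts per library, the replicate number as a block, splines of GC content and of transcript length with 5 degrees of freedom each, leaving out each library in turn and, added after seeing the data, chromosome medians set equal.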

Additional observations from a re-analysis of the deposited data

How the results depend on the processing

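Of 168 values under the alternatives, 164 were taken as unchanged. For a count this meant the same count, and for the folate median a move smaller than the libraries of a group differ. For a gene it meant the sign and call reported. With 0 folate genes called, that asks little beyond the sign. ALDH1L2 was taken as unchanged at 0.15 and at 1.72. No folate gene and no list gene had an adjusted p under 0.05 in any of the 14 alternatives. The median of the folate genes ran from −0.02, with chromosome medians set equal, to 0.07, without wild-type 2. Over all genes, 0 were called by edgeR's test (1243 at an unadjusted p under 0.05), whereas DESeq2's Wald test called 31; the cause was not tested. Fits that left out 1 library called between 0 and 4 genes, with 1 without wild-type 1 and 4 without variant 3; a lone wild-type library was assumed to vary like the variant libraries. MTHFD2L reversed, to 0.037, once GC content and length were adjusted for; the cause was not tested.

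The replicate number was tried as a block, though the labels do not say that a shared number marks anything. Deviations from each group's own mean correlated at 0.120 for the libraries of number 1 and −0.113 for those of number 2, across 16310 genes. The 2 wild-type libraries deviate as exact opposites, so wild-type 2 with variant 1 gave −0.120 and wild-type 1 with variant 2 gave 0.113. The values for the 2 numbers had opposite signs and so did not show a pairing. With the replicate block the count of called folate genes stayed at 0, and MTHFD1 had a log2 fold change of 0.74 (adjusted p 0.488 in edgeR's test) and SHMT2 of −0.35 (0.521). TYMS was at 0.16 in that fit. It leaves variant 3 without a partner. ALDH1L2 had 17 to 64 counts per library.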
